A study of Mus musculus with 6 samples.

Results

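The 10 genes described here belong to the circadian clock and its direct output. They are the activators Arntl (also called Bmal1), Clock and Npas2, the repressing nuclear receptors Nr1d1 and Nr1d2, the repressors Per2, Per3 and Cry1, and the output genes Dbp and Ciart. They were taken by symbol through their Ensembl identifiers. All 10 were found among the 54532 genes of the count table, and all 10 were among the 16300 genes with enough counts to be tested. Transcripts were measured by bulk RNA sequencing of whole mouse adrenal glands, with 3 WT samples and 3 VEGF/LysM samples, named as the labels name them. The series asks what VEGF-A made by macrophages does for the gland. LysM is another name of Lyz2, a lysozyme gene of myeloid cells. The labels used here do not describe the allele, what drives it, or the age, sex or hour of collection of the mice, and they do not say whether replicates are separate animals. A p-value here thus reflects only how these 6 samples vary, and that variation could be technical.

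The clock is a loop of transcription and repression that runs in nearly every cell. ARNTL pairs with CLOCK or NPAS2 and binds E-box sequences, which switches on the Per, Cry, Nr1d, Dbp and Ciart genes. PER and CRY proteins then return to the nucleus and block that pair, while the REV-ERB proteins made from Nr1d1 and Nr1d2 repress Arntl. Arntl transcripts therefore peak at about the opposite phase to those of Nr1d1 and Dbp, and the ratio of such a pair in a tissue sample moves with the time of day. In the adrenal cortex the clock takes part in the daily rhythm of glucocorticoid output and in control of the aldosterone pathway.

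The promoters of Ciart, Per3 and Cry1 and a short stretch of Arntl are shown because they hold matches to motifs that clock proteins are known to bind. They come from RefSeq on build GRCm38.p6, are written 5′ to 3′ on the strand of the gene, and show the 250 bases before the start of transcription for the promoters. Capitals mark the matched motifs.
Ciart, chr3:95882229-95882478, minus strand: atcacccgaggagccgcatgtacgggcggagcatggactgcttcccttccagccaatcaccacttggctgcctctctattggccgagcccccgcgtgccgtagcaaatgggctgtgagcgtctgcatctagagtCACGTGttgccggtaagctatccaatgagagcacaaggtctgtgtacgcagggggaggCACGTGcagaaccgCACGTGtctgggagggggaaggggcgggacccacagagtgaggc
Cry1, chr10:85185055-85185304, minus strand: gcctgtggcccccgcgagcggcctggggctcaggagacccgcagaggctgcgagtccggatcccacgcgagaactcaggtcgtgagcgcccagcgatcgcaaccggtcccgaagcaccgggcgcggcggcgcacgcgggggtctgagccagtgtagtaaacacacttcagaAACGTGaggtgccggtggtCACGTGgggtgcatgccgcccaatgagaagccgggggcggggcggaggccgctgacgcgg
Per3, chr4:151044666-151044915, minus strand: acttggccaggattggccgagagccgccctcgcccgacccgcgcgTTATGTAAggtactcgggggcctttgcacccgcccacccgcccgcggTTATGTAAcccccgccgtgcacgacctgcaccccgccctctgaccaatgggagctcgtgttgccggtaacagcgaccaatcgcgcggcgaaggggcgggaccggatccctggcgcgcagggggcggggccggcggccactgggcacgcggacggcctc
Arntl, chr7:113207530-113207559, plus strand: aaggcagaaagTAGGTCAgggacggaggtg

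Windows of 300 bases, from 250 before to 50 after each start, were searched on both strands for 5 motifs in the 9 members that the promoter table holds (Per2 is the other), and a gene was counted once if any of its listed windows held the motif. The E-box CACGTG was in 2 of the 9, Ciart and Cry1, and in 8.09% of all 27025 genes in the table. Ciart held it 3 times, beginning at -116, -58 and -44 from the start, and Cry1 once, at -60. A related E-box form, CACGTT, was in Cry1 at -79 and in Nr1d1 at -28, and in 5.44% of all genes. Both of these matches were on the opposite strand, so the strand of the gene reads AACGTG there. The D-box TTATGTAA, the binding sequence of DBP and its relatives and of NFIL3, was in Per3 alone of the 9, at -205 and -158, and in 1.11% of all genes. The core of the element bound by REV-ERB and ROR proteins, TAGGTCA, was in Arntl alone of the 9, and in 2.97% of all genes. It began at base 31 counted from the second of the listed starts, with the start itself as the first base. A D-box variant, TTACGTAA, was in 0 of the 9 and in 0.126% of all genes. No 2 matches overlapped. A match is a run of letters and not a measured binding site.

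The libraries held 16476879 to 18671950 counts, and 2 of them stood apart in hepatocyte or medulla markers. WT replicate 3 held more hepatocyte, kidney tubule and lymphocyte marker transcripts than the others: a list of 12 hepatocyte genes took 6.54% of its counts, 0.0986% in VEGF/LysM replicate 3 and at most 0.0376% in the other 4. All 12 hepatocyte, all 6 kidney tubule and all 6 lymphocyte markers were highest in WT replicate 3, and all 7 adrenal cortex markers were lowest there, at a summed 28120 CPM (a count relative to the scaled size of its library) against 43780 to 53340 in the other 5. VEGF/LysM replicate 3 had the highest summed level of 6 medulla markers, 9416 CPM against 3770 to 6925. It also held hepatocyte transcripts. Alb had 2869 counts there and 691864 in WT replicate 3, against 1 to 18 in the other 4. In those 4 the hepatocyte sum was mostly Cyp2e1, so the sum understates how far VEGF/LysM replicate 3 differed from them. Cortex and medulla markers were present in each library, as the tissue label says. Liver has strong clock rhythms of its own. A hepatocyte covariate was added in an alternative fit, given in the closing section, but the part of these marker transcripts in the clock gene values was not itself tested. For many genes the fold change is also given without either or both of these libraries. In a whole gland, fewer cells of a type and less RNA per cell cannot be told apart.

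**Figure D1:**
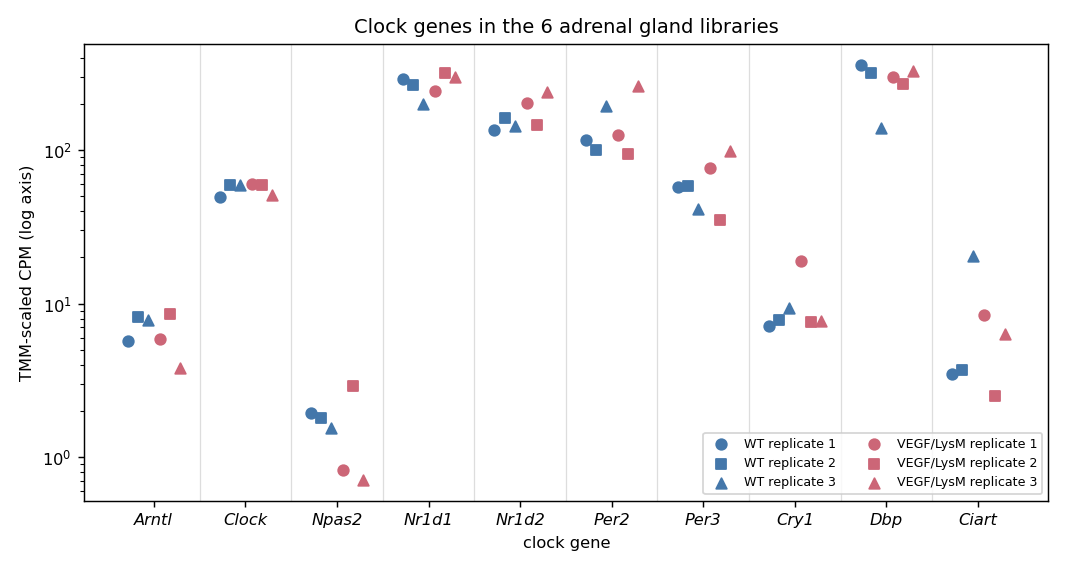
Level of each of the 10 clock genes in each library, as TMM-scaled CPM on a log axis; blue marks WT, red marks VEGF/LysM and the shape gives the replicate. Npas2 sits lowest in 5 of the 6 libraries, with Ciart below it in VEGF/LysM replicate 2 (2.52 against 2.89 CPM), Nr1d1 lies between 200.27 and 318.77 CPM, and WT replicate 3 lies apart for Dbp (139.75 CPM) and Ciart (20.42 CPM).

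The top and the bottom of the order of abundance were the same in all 6 glands, with Dbp and Nr1d1 first and Npas2 last, while the middle changed. Per kilobase of exon, Dbp averaged 155.6 ± 42.2 CPM per kb (SD over 6 libraries) and Nr1d1 99.1 ± 15.9, and they were in the top and second place in 6 of 6 libraries. Nr1d2 followed at 36.8 ± 8.71 and Per2 at 25.6 ± 11.4 CPM per kb. This order of Nr1d2 and Per2 held in 5 of 6 libraries and turned in WT replicate 3. Per3 stood at 10.2 ± 3.90 and Clock at 5.70 ± 0.508 CPM per kb, in that order in 5 of 6 libraries. Ciart (3.81 ± 3.41), Cry1 (3.24 ± 1.52) and Arntl (2.16 ± 0.594) overlapped, and their order changed from library to library: Ciart exceeded Cry1 in 2 of 6 and Cry1 exceeded Arntl in 4 of 6. Npas2 was last in 6 of 6, at 0.382 ± 0.190 CPM per kb. The same order of mean levels came from the length of the longest transcript.

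Arntl (chr7:113207465-113314126, plus strand on GRCm38), the activator without which the loop does not run, stood at 5.74, 8.24 and 7.80 CPM in the WT glands and at 5.92, 8.57 and 3.83 CPM in the VEGF/LysM glands. The lowest value was that of VEGF/LysM replicate 3 and the highest that of VEGF/LysM replicate 2, so the WT range lay inside the VEGF/LysM range. The group means were 7.26 ± 1.33 and 6.11 ± 2.38 CPM (SD, n = 3). The fitted log2 fold change, VEGF/LysM minus WT, was -0.25 ± 0.35 (SE). It moved with single VEGF/LysM libraries, to -0.0014 without replicate 3 and to -0.59 without replicate 2. These values come from 65 to 163 counts per library.

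Clock (chr5:76209868-76304792, minus strand), the partner of ARNTL, was the steadiest member. It stood at 49.25, 59.67 and 59.63 CPM in the WT glands and at 60.45, 59.25 and 50.91 CPM in the VEGF/LysM glands, a log2 fold change of 0.018 ± 0.14. The highest library exceeded the lowest by 1.23-fold. Npas2 (chr1:39193731-39363236, plus strand), the other partner, was scarce: 34, 35 and 21 counts in the WT glands and 14, 55 and 12 counts in VEGF/LysM. As CPM these are 1.93, 1.80 and 1.56 against 0.82, 2.89 and 0.71, and the VEGF/LysM libraries lay on both sides of the WT libraries. The log2 fold change of Npas2 was -0.25 with a 95% interval of -1.63 to 1.12, and its VEGF/LysM libraries differed among themselves by 4.09-fold.

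Nr1d1 (chr11:98767932-98775333, minus strand), which encodes REV-ERB alpha, stood at 289.57, 264.66 and 200.27 CPM in the WT glands and 243.48, 318.77 and 301.21 CPM in the VEGF/LysM glands. WT replicate 3 was the lowest, and the log2 fold change of 0.19 ± 0.20 was 0.051 without it and 0.027 without both replicate 3 libraries. Its exons share 263 bases, 9.67% of their length, with the antisense gene Thra, and libraries of this type do not mark strand. Nr1d2 (chr14:18204054-18239127, minus strand), which encodes REV-ERB beta, read 135.29, 162.89 and 144.73 CPM in the WT glands and 203.03, 144.85 and 238.18 CPM in the VEGF/LysM glands. In VEGF/LysM 2 of the 3 libraries exceeded each WT library and replicate 2 lay among them. Its log2 fold change of 0.40 ± 0.21 had the smallest p among the members (unadjusted p = 0.0916, adjusted p = 0.999, edgeR). That fold change was 0.38 without WT replicate 3, 0.24 without VEGF/LysM replicate 3 and 0.23 without both. Without VEGF/LysM replicate 2 it was 0.56. Rora, whose product competes with the REV-ERB proteins for the same DNA element and activates Arntl, stood at 75.63, 104.76 and 114.36 CPM in the WT glands and 126.23, 123.92 and 142.42 CPM in the VEGF/LysM glands. The groups did not overlap for Rora, with a log2 fold change of 0.41 ± 0.18 that did not pass the test (unadjusted p = 0.0564, adjusted p = 0.999, edgeR).

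Per2 (chr1:91415982-91459324, minus strand), which encodes a repressor that also carries signals from outside the cell into the clock, read 116.75, 100.74 and 194.41 CPM in the WT glands and 126.34, 93.95 and 263.49 CPM in the VEGF/LysM glands. The high value in each group was that of replicate 3, which are the libraries that stood apart. The log2 fold change of Per2 was 0.23 ± 0.42 over all libraries, 0.56 without WT replicate 3, -0.32 without VEGF/LysM replicate 3 and 0.025 without both. Per3 (chr4:151003652-151044665, minus strand) stood at 57.44, 58.74 and 41.66 CPM in the WT glands and 77.10, 34.91 and 98.46 CPM in the VEGF/LysM glands. The VEGF/LysM libraries enclosed the WT libraries and differed among themselves by 2.82-fold. The log2 fold change of 0.41 ± 0.36 became 0.090 without VEGF/LysM replicate 3 and -0.048 without both replicate 3 libraries. Without VEGF/LysM replicate 2 it was 0.72. Per1, a fellow repressor that responds quickly to glucocorticoids and cAMP, read 116.47, 128.72 and 171.39 CPM in the WT glands and 108.70, 102.21 and 299.15 CPM in the VEGF/LysM glands. VEGF/LysM replicate 3 again stood above the rest, and the log2 fold change of Per1 turned from 0.29 ± 0.43 to -0.40 without it.

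Cry1 (chr10:85131700-85185064, minus strand), a cryptochrome that represses the activator pair, read 7.17, 7.83 and 9.43 CPM in the WT glands and 19.05, 7.57 and 7.71 CPM in the VEGF/LysM glands. A single library, VEGF/LysM replicate 1, was high (325 counts against 126 to 152 in the other 5). The log2 fold change of Cry1 was 0.49 ± 0.40 with it and -0.11 without it. Without both replicate 3 libraries, a fit that keeps VEGF/LysM replicate 1, the fold change was 0.83 ± 0.40. Cry2, the other cryptochrome, was even in 5 libraries, at 68.40 to 76.86 CPM, and stood at 123.24 CPM in VEGF/LysM replicate 3. Its log2 fold change turned from 0.24 ± 0.24 to -0.087 without that library.

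Dbp (chr7:45705088-45710203, plus strand), a transcription factor that carries the rhythm to D-box genes, stood at 360.20, 318.92 and 139.75 CPM in the WT glands and 298.47, 270.55 and 327.58 CPM in the VEGF/LysM glands. WT replicate 3 was far below the other 5, which lay within 270.55 to 360.20 CPM. The log2 fold change of Dbp was 0.13 ± 0.34 over all libraries and -0.19 ± 0.16 without WT replicate 3. Its exons share 539 bases, 29.3% of their length, with the antisense gene Sphk2. Ciart (chr3:95878503-95882251, minus strand), a repressor of the activator pair that is itself switched on by it, read 3.47, 3.71 and 20.42 CPM in the WT glands and 8.38, 2.52 and 6.36 CPM in the VEGF/LysM glands. WT replicate 3 was the highest here, and the log2 fold change of Ciart turned from -0.67 ± 0.79 to 0.67 ± 0.47 without it. Dbp and Ciart, both known targets of the activator pair, thus lay at opposite ends of their ranges in WT replicate 3, whose hepatocyte markers summed to 84190 CPM. The same library had the highest value of 4 of 7 glucocorticoid-response genes. The part of its hepatocyte, kidney tubule and lymphocyte transcripts in those values was not tested.

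The relatives of Dbp that bind the same D-box showed no common direction. Tef read 220.76, 235.23 and 246.16 CPM in the WT glands and 312.72, 166.93 and 273.90 CPM in the VEGF/LysM glands, a log2 fold change of 0.10 ± 0.24. Hlf ran from 25.19 to 54.43 CPM in the WT glands and from 20.56 to 42.97 CPM in the VEGF/LysM glands, with its highest value in WT replicate 3. Nfil3, which represses through the D-box, was at 86.51 CPM in WT replicate 3 and 49.67 CPM in VEGF/LysM replicate 3, the libraries with the 2 highest hepatocyte sums, and at 8.81 to 20.03 CPM in the other 4. Its log2 fold change was -0.49 ± 0.91 over all libraries and 1.02 without WT replicate 3. Bhlhe40 and Bhlhe41, which compete for E-boxes, had log2 fold changes of -0.034 ± 0.18 and 0.30 ± 0.24.

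**Figure D2:**
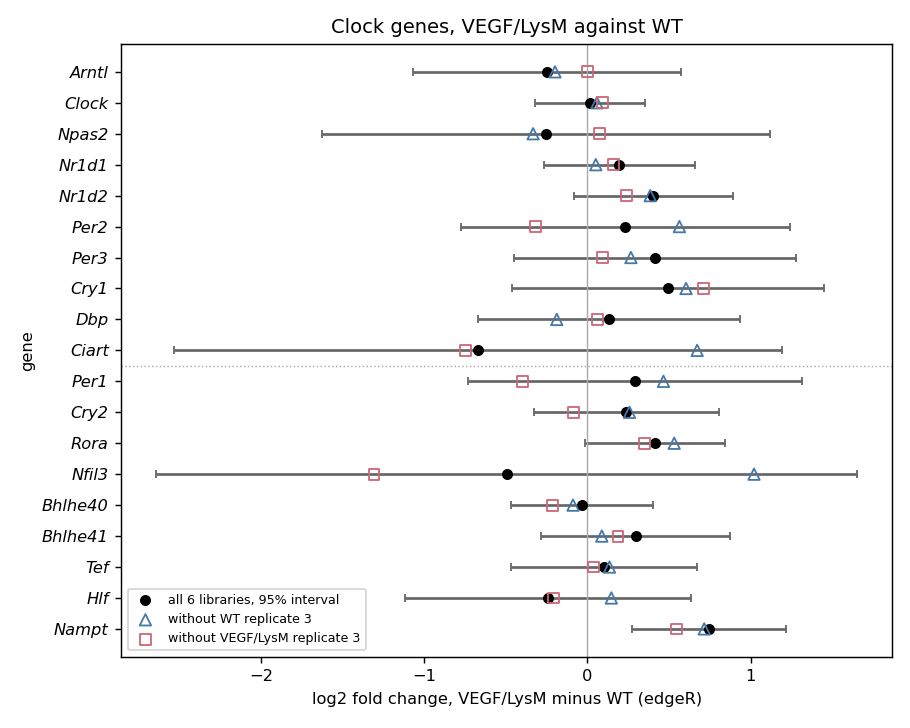
Log2 fold change of VEGF/LysM minus WT (edgeR) for the 10 members and, under the dotted line, 9 other clock genes; black points are all 6 libraries with their 95% interval, triangles leave out WT replicate 3 and squares leave out VEGF/LysM replicate 3. The intervals of all 10 members cross 0, and Ciart, Dbp, Per2 and Npas2 change side when 1 of these libraries is left out.

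None of the 10 members passed the test between the groups. The quasi-likelihood fit of edgeR gave 0 of 10 at an adjusted p of 0.05 in either direction (0% of all 16300 genes), with adjusted p = 0.999 for each. At an unadjusted p of 0.05 it gave 0 of 10, where 2.82% of all genes passed, 0.871% higher and 1.94% lower in VEGF/LysM. DESeq2 and limma-voom, with and without sample weights, also called 0 of 10, with 0 at an unadjusted p of 0.05 in each. Over all genes edgeR found 459 and DESeq2 542 at that unadjusted level, and neither called any. For 0 of the 10 did the 3 VEGF/LysM values lie on 1 side of the 3 WT values, against 5.95% of all genes (3.54% higher and 2.41% lower). The fold changes of 7 members were above 0 and those of 3 below, where 50.3% of all genes were above, with a median of 0.16 against 0.0013 over all genes. That median was 0.16 without WT replicate 3, 0.083 without VEGF/LysM replicate 3 and 0.043 without both. The 95% intervals of the members reached a median of 0.84 log2 units to either side. The size of difference that could be told from 0 at this number of samples varied from gene to gene. Clock had the narrowest interval, -0.32 to 0.35, and Ciart the widest, -2.53 to 1.19.

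Of the 20 other clock genes, 0 passed at an adjusted p of 0.05 and 1 had an unadjusted p under 0.05 (edgeR), where 2.82% of all genes did. For 2 of the 20 the groups did not overlap, both higher in VEGF/LysM, against 3.54% of all genes in that direction. Those were Rora, above, and Nampt, an E-box gene whose product makes the NAD precursor used by clock-linked deacetylases. Nampt read 190.22, 217.97 and 193.74 CPM in the WT glands and 271.27, 313.24 and 424.10 CPM in the VEGF/LysM glands. Each VEGF/LysM library lay above each WT library, with a log2 fold change of 0.74 ± 0.20 (unadjusted p = 0.00753, adjusted p = 0.999, edgeR), 0.72 without WT replicate 3 and 0.54 without VEGF/LysM replicate 3. Fold changes were above 0 for 12 of the 20 genes and below 0 for 8, with a median of 0.10. Without WT replicate 3 the count above 0 was 16 of 20 (median 0.13), and without VEGF/LysM replicate 3 it was 10 of 20 (median 0.014).

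**Figure D3:**
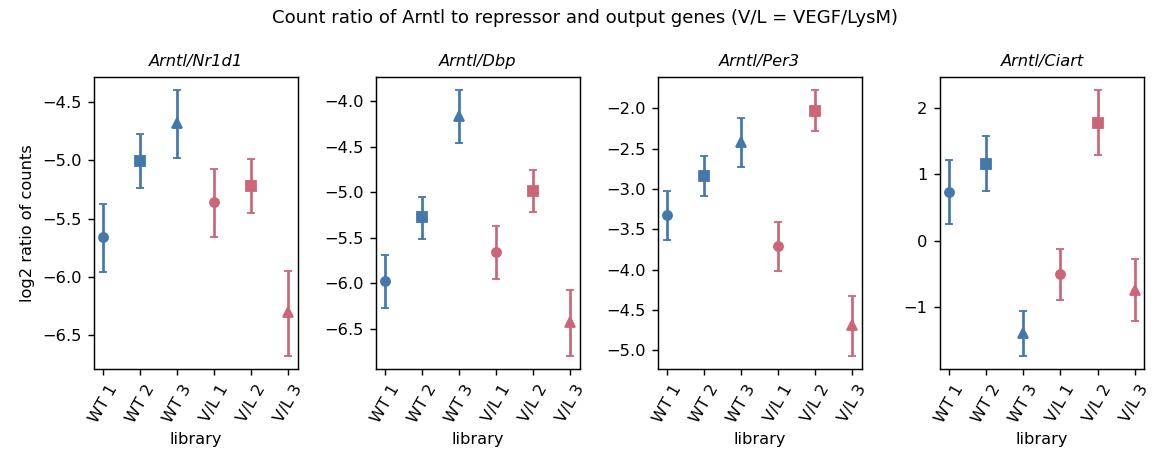
Log2 ratio of the counts of Arntl to those of Nr1d1, Dbp, Per3 and Ciart within each library; bars are exact binomial 95% intervals, which cover counting error only, and each panel has its own axis. Arntl to Dbp runs from -6.42 in VEGF/LysM replicate 3 to -4.16 in WT replicate 3, and the groups overlap in each panel.

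The opposing pairs were used to see whether the glands were in a like clock state. A ratio of 2 genes within a library needs no scaling between libraries. In each of the 6 libraries Arntl was far below Nr1d1 and Dbp: per kilobase, Nr1d1 exceeded Arntl by 29.2-fold to 89.4-fold and Dbp exceeded it by 30.2-fold to 144-fold. The log2 count ratio of Arntl to Nr1d1 was -5.66, -5.00 and -4.68 in the WT glands and -5.36, -5.22 and -6.30 in VEGF/LysM. For Arntl to Dbp it was -5.97, -5.27 and -4.16 in the WT glands and -5.66, -4.98 and -6.42 in VEGF/LysM. The extremes of both pairs were the replicate 3 libraries, WT at the top and VEGF/LysM at the bottom, 1.62 and 2.26 log2 units apart. The other 4 libraries, which come from both groups, lay within 0.65 and 0.99 log2 units.

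Group differences in these ratios were smaller than the larger of the SDs inside the groups. Arntl to Nr1d1 averaged -5.11 ± 0.50 in the WT glands and -5.63 ± 0.59 in VEGF/LysM (SD, n = 3), a difference of -0.51 that was 0.041 without both replicate 3 libraries. Arntl to Dbp averaged -5.14 ± 0.91 and -5.69 ± 0.72, a difference of -0.55 that was -0.063 without WT replicate 3 and 0.30 without both. The 2 pairs with Npas2 gave -0.77 (Nr1d1) and -0.81 (Dbp), where the VEGF/LysM libraries alone had SDs of 1.01 and 1.24. For all 6 pairs examined the groups overlapped, and no test was made of them.

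Ratios to Per3 and Ciart differed more between libraries than between groups. Arntl to Per3 was -3.32, -2.83 and -2.42 in the WT glands and -3.70, -2.03 and -4.69 in VEGF/LysM, so that both ends were VEGF/LysM libraries. The 95% counting intervals of those ends, -2.28 to -1.78 in replicate 2 and -5.07 to -4.33 in replicate 3, lay well apart. Arntl to Ciart was 0.73, 1.15 and -1.39 in the WT glands and -0.50, 1.76 and -0.73 in VEGF/LysM. Per kilobase, Ciart exceeded Arntl in WT replicate 3, VEGF/LysM replicate 1 and VEGF/LysM replicate 3 (4.12-fold, 2.23-fold and 2.61-fold) and was at or below it in the other 3 (0.950-fold, 0.708-fold and 0.463-fold).

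**Figure D4:**
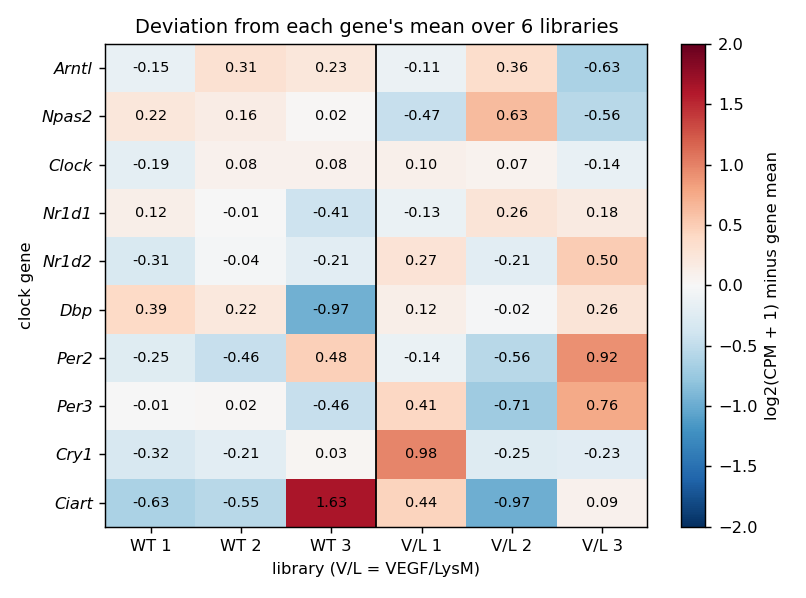
Log2(CPM + 1) of each clock gene in each library minus the mean of that gene over the 6 libraries, with the value in each cell; red is above and blue below the mean. VEGF/LysM replicate 2 has Arntl and Npas2 high and Per2, Per3 and Ciart low, and VEGF/LysM replicate 3 has Arntl and Npas2 low and Per2 and Per3 high.

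Within the VEGF/LysM group, replicates 2 and 3 lay at opposite ends for 4 members. Replicate 2 had the highest Arntl, Npas2 and Nr1d1 and the lowest Per2, Per3 and Ciart of all 6 libraries. Replicate 3 had the lowest Arntl and Npas2 and the highest Nr1d2, Per2 and Per3. From replicate 2 to replicate 3 Per2 was 2.80-fold, Per3 2.82-fold, Ciart 2.52-fold and Per1 2.93-fold higher, while Arntl was 2.24-fold and Npas2 4.09-fold higher in replicate 2. Dbp and Nr1d1 differed less between them, by 1.21-fold and, in the other direction, 1.06-fold. WT replicates 1 and 2 were closer, with Arntl, at 5.74 and 8.24 CPM, the most different of the 10 members. VEGF/LysM replicate 3 also had the highest medulla sum and, after WT replicate 3, the highest hepatocyte sum. The part of these in the clock gene values was not tested.

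The spread of the members over libraries was uneven. On the log2(CPM + 1) scale, Ciart had an SD of 0.95, larger than in 95.9% of all genes tested, and Clock one of 0.13, larger than in 10.9%. Per2, Per3, Dbp and Cry1 had SDs of 0.58, 0.54, 0.49 and 0.49, against a median of 0.26 over all genes. Without WT replicate 3 the SD of Ciart was 0.575, larger than in 96.5% of all genes. The SD of Dbp then fell to 0.15 and that of Nr1d1 from 0.24 to 0.15, below the median of 0.21 of all genes, while Per2, Per3 and Cry1 kept SDs of 0.59, 0.55 and 0.55. Over those 5 glands Dbp, Nr1d1 and Clock varied less than most genes, and the other members more. Those others ran from Nr1d2, with an SD larger than in 81.3% of all genes, to Per2, at 96.9%.

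Correlations over the 6 libraries were computed for 10 pairs and none passed after Benjamini-Hochberg adjustment over them. Arntl and Per3 had the closest relation, with Pearson r = -0.86 (exact permutation p = 0.0292, adjusted p = 0.24) and Spearman rho = -0.71 (exact permutation p = 0.136, adjusted p = 0.583). Without the 2 libraries farthest from the median of Arntl, VEGF/LysM replicates 2 and 3, r was -0.57. Arntl and Npas2 had r = 0.77 (exact permutation p = 0.0861, adjusted p = 0.24) and rho = 0.66 (exact permutation p = 0.175, adjusted p = 0.583), and r = 0.35 without those libraries. Arntl and Nr1d1 had r = -0.27 (exact permutation p = 0.596, adjusted p = 0.786) and rho = 0.029 (exact permutation p = 1), and r = -0.46 without them. For Arntl and Dbp r was -0.43 (exact permutation p = 0.357, adjusted p = 0.595) and rho -0.66 (exact permutation p = 0.175, adjusted p = 0.583), and r -0.50 without them. Dbp and Ciart had r = -0.79 (exact permutation p = 0.0958, adjusted p = 0.24) and rho = -0.37 (exact permutation p = 0.497, adjusted p = 0.705), and this turned to r = 0.51 without WT replicates 1 and 3. The other 5 pairs had r from -0.10 to 0.77 with adjusted p of 0.24 or more; the highest was that of Nr1d1 and Dbp, which was -0.12 without WT replicate 3. The groups have too few samples for values within each.

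Of the genes ordered by likeness to Arntl over the 6 libraries, those most like it were not clock genes. The order required a mean of at least 10 CPM, which left out the members Npas2 (1.62 CPM), Ciart (7.48) and Cry1 (9.79). Npas2 was closer to Arntl (r = 0.77) than Clock was (r = 0.72). Among 10516 genes with a mean of at least 10 CPM, the highest Pearson correlations with Arntl were those of Col3a1 (0.99), Anxa4 (0.99), Olfml1 (0.99), Zbtb7b (0.99) and Col5a2 (0.99). Col3a1, a fibrillar collagen of connective tissue, read 123.69, 181.39 and 157.57 CPM in the WT glands and 122.18, 178.49 and 73.15 CPM in the VEGF/LysM glands. It was lowest in the same library as Arntl, and the part of connective tissue content in the level of Arntl was not tested. The most opposite were Ip6k1 (-0.98), Mapk12 (-0.97), Stx16 (-0.97), Arglu1 (-0.97) and Tnip2 (-0.97). In that order of 10516, Clock stood at 472, and Per3 at 10363, Cry2 at 10267, Nr1d2 at 10012, Per2 at 9892 and Per1 at 9823 lay near the opposite end. Dbp at 8782 and Nr1d1 at 7731 lay nearer the middle. With 6 libraries these are descriptions of order only.

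Glucocorticoid-response genes and adrenal genes reported under clock control were read beside the members. Of 7 glucocorticoid-response genes, Per1 among them, 0 passed (0% of all genes). An unadjusted p under 0.05 was found for 0 of 7 (edgeR), where 2.82% of all genes had one. For 0 of 7 did the groups stand apart, against 5.95% of all genes. Fold changes were above 0 for 3 and below 0 for 4, where 50.3% of all genes were above. That split depended on single libraries: 6 of 7 were above 0 without WT replicate 3 (median 0.15) and 1 of 7 without VEGF/LysM replicate 3 (median -0.40), against a median of -0.15 over all 6 libraries. Of the 7, 4 had their highest value in WT replicate 3, and the other 3, with Per1, had theirs in VEGF/LysM replicate 3. The part of other tissue transcripts of these libraries in those values was not tested. Star, which brings cholesterol into mitochondria for steroid synthesis, stood at 10807 to 13376 CPM in the WT glands and 11710 to 16990 CPM in the VEGF/LysM glands, a log2 fold change of 0.27 ± 0.25 that was 0.13 without VEGF/LysM replicate 1. Hsd3b6, a steroid dehydrogenase of the aldosterone-making zone that rises when the Cry genes are lost, read 29.51, 29.84 and 15.52 CPM in the WT glands and 53.59, 27.81 and 25.78 CPM in the VEGF/LysM glands. Its high value was in VEGF/LysM replicate 1, the library with the high Cry1, and its log2 fold change of 0.52 ± 0.37 was 0.083 without that library and 0.26 without WT replicate 3.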

How the data were processed

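The authors deposited 1 table of raw counts per gene for the 6 libraries. Per the submitters' processing notes, the tools include kallisto and DESeq2 1.36.0 and the build is mm10. Per the labels' protocols, libraries followed Smart-seq2, which does not mark strand. Of 54532 identifiers, 54409 matched a symbol, and the others held at most 0.0938% of counts. Genes were filtered with filterByExpr (minimum count 10, minimum total 15), scaled by TMM and fitted in edgeR 4.0.16 under R 4.3.3 (quasi-likelihood, group as the only term). Benjamini-Hochberg adjustment ran across the 16300 genes that passed, at 0.05. The procedure was tested on simulated data. Fold changes compare VEGF/LysM with WT, so a positive value is higher in VEGF/LysM. Positions and exon lengths come from GENCODE on GRCm38. The members, gene lists, pairs and naming rule were chosen with earlier results of these data known. That rule names all members, 8 other clock genes, any listed gene past the threshold or with groups that did not overlap, Star, Hsd3b6, and the 5 genes at each end of the correlation order with Arntl. An exact permutation test of 3 against 3 cannot give less than 0.1, and none was run on single values. Alternatives were other scalings and filters, a replicate block, libraries left out, a hepatocyte covariate, DESeq2 1.42.0 and limma-voom (limma 3.58.1). Macrophage markers summed to 306.1 to 523.2 CPM and adipocyte markers to 1285 to 3766 CPM over the libraries. The lowest adipocyte sum was that of VEGF/LysM replicate 1, mostly through Cfd, at 504.32 CPM against 1340.79 or more elsewhere.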

Additional observations from a re-analysis of the deposited data

How the results depend on the processing

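None of the 10 members, and none of 11 others (Nampt, Star, Hsd3b6 and the 8 other clock genes named by rule), passed under any of the 17 alternatives (lowest adjusted p 0.691 and 0.656), and 153 of 170 member values kept their direction. Nr1d1 and Nr1d2 kept theirs throughout. The number of genes called was 0 to 1 when 1 library was left out, with the 1 call (no clock gene) made without WT replicate 3. Over those fits the log2 fold change ran from -0.066 to 0.092 for Clock, -1.22 to 0.076 for Npas2, -0.32 to 0.56 for Per2, -0.11 to 0.71 for Cry1, -0.19 to 0.38 for Dbp and -1.06 to 0.67 for Ciart. For Arntl it ran from -0.59 to -0.0014 and for Per3 from 0.090 to 0.72. For Nr1d1 it ran from 0.051 to 0.31 and for Nr1d2 from 0.24 to 0.56. It ran from -0.40 to 0.54 for Per1, -0.087 to 0.37 for Cry2, -1.31 to 1.02 for Nfil3, -0.22 to 0.058 for Bhlhe40, -0.10 to 0.31 for Tef and -0.57 to 0.15 for Hlf. With both replicate 3 libraries left out the direction turned for Arntl (0.058), Npas2 (0.0072), Per3 (-0.048), Dbp (-0.25), Ciart (0.60), Per1 (-0.21), Cry2 (-0.058), Nfil3 (0.22), Bhlhe41 (-0.011) and Hlf (0.19), and the group difference in the log2 ratio moved to 0.041 for Arntl to Nr1d1 and 0.30 for Arntl to Dbp. A hepatocyte covariate turned Ciart (0.30 ± 0.49, SE) and Nfil3 (0.49 ± 0.34), where the main fit had SEs of 0.79 and 0.91. limma-voom with sample weights turned Dbp (-0.059), Ciart (0.26), Per1 (-0.019) and Nfil3 (0.46). Scaling by library size alone turned Bhlhe40 (0.030) and, for Npas2 and Dbp, r (0.069). Without the 2 libraries farthest on the first gene, r turned for Arntl and Ciart (0.26), Npas2 and Dbp (0.38) and Dbp and Ciart (0.51). Beyond the libraries left out, the cause was not tested. Other scalings moved the median fold change of all genes by at most 0.068.

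Whether replicate numbers pair the samples could not be told, since the correlations of deviations between WT and VEGF/LysM libraries were small, 0.32 at most. The correlations of same-numbered deviations were 0.064, -0.014 and 0.25, and WT replicates 1 and 2 each correlated best with another number. WT replicate 3 correlated best with VEGF/LysM replicate 3, and whether those 2 libraries form a pair was not tested. A fit with the replicate block called 0 genes, with 270 at an unadjusted p of 0.05 against 459 without it. That count was 1098 with no filter and 143 to 1279 with 1 library left out. Depth limits Npas2 most, at 12 to 55 counts a library, then Ciart, at 48 to 275, and Arntl, at 65 to 163.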
